A study of Mus musculus with 30 samples.

Results

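The 33 genes described here encode enzymes and carriers of 3 linked stretches of carbon metabolism in mouse blastocysts: 12 of glycolysis, 10 of pyruvate and lactate handling and 11 of the tricarboxylic acid (TCA) cycle. They were taken as a fixed list of symbols. For each, the transcript cluster (the set of array probes for 1 transcript locus) used was that with the symbol alone and the highest mean signal across the 30 arrays. Of the 33, 31 had such a cluster among the 30142 named genes, and 29 lay in the upper 60% of genes by mean signal, the 18090 genes that were tested. Gpi1 and Eno1 were not analysed here. Slc16a3 and Pcx fell below the level and are given as values.

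RNA of 30 single blastocysts was measured, 1 embryo per array. B6C3F1 x CD1 zygotes were collected from stimulated females and first grown in KSOM(aa), an amino-acid-supplemented medium for mouse embryos. The 10 GM501 twins and 10 SAGE twins were sister blastomeres of 10 embryos bisected as 2-cell embryos, each grown alone, 1 sister in GM501 CULT and the other in SAGE 1-Step, both media for human assisted reproduction. The 10 KSOM controls were intact embryos kept singly in KSOM(aa). Every embryo was lysed on day 4 post coitum, having spent 96 h in vitro; the labels give roughly 40 to 50 cells for twins and 80 for controls. Medium, bisection and cell number therefore differed together between twins and controls and, where twins are set against KSOM, cannot be told apart. In such whole-embryo RNA, fewer cells of a type and less RNA per cell cannot be told apart either. Numbers of matings and culture dates are not in the labels, so each p-value reflects the spread of these embryos alone.

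Glycolysis splits glucose into pyruvate in the cytosol, lactate dehydrogenase interconverts pyruvate and lactate, and the pyruvate dehydrogenase complex feeds acetyl-CoA into the TCA cycle in mitochondria. Cleavage-stage mouse embryos depend on pyruvate and lactate, and glucose uptake and lactate release increase towards the blastocyst stage. Values below are log2 signals, so a difference of 1 is a 2-fold change, and levels are compared between embryos for each gene and never between genes.

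The arrays differed in their medians by pair. Array medians over all clusters were 4.88 ± 0.238 in GM501 twins, 4.89 ± 0.225 in SAGE twins, against 4.64 ± 0.029 in KSOM controls (mean ± SD, n = 10 each). The 12 twins of pairs 1 to 6 lay between 4.81 and 5.28, and 7 of the 8 twins of pairs 7 to 10 between 4.57 and 4.67, beside 4.59 to 4.69 in the controls. The SAGE twin of pair 8 had 5.12. Over the tested genes alone, the medians of pairs 1 to 6 were not raised. They ran from 6.83 to 7.02, beside 6.86 to 7.19 in pairs 7 to 10 and 6.95 to 7.04 in the controls. No label names a batch, so counts over the gene lists are also given within pairs 1 to 6 and within pairs 7 to 10, and the part of the array medians in any result was not tested.

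The start regions of 4 genes on which the results turn are shown here because each was called lower in at least 1 twin group: Tpi1 and Gapdh of glycolysis, Ldha of the lactate step and Ogdh of the TCA cycle. Each is the first start listed in RefSeq (GRCm38.p6), with 250 bases before and 50 after the start, printed 5′ to 3′ on the gene's strand. Capitals mark ACGTG and its reverse complement CACGT, the core letters of the hypoxia response element; where both overlap they spell CACGTG, the E-box.
Tpi1 (chr6:124814109-124814408, minus strand): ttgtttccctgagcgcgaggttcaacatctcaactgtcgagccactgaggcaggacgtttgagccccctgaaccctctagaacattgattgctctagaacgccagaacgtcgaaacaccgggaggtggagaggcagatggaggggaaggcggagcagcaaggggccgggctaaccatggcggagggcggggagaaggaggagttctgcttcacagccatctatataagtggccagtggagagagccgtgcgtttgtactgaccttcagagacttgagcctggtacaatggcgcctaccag
Gapdh (chr6:125165724-125166023, minus strand): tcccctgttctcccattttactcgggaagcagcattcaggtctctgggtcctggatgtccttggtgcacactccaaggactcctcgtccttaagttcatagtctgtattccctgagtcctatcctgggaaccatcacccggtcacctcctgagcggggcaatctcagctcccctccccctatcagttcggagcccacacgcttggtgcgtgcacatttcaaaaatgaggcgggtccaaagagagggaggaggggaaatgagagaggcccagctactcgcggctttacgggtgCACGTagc
Ldha (chr7:46845554-46845853, plus strand): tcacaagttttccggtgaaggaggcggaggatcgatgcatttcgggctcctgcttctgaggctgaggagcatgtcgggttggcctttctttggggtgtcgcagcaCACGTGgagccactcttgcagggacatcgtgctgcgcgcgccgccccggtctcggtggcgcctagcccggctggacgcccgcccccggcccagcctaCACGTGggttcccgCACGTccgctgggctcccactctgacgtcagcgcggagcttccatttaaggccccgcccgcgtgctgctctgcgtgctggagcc
Ogdh (chr11:6291347-6291646, plus strand): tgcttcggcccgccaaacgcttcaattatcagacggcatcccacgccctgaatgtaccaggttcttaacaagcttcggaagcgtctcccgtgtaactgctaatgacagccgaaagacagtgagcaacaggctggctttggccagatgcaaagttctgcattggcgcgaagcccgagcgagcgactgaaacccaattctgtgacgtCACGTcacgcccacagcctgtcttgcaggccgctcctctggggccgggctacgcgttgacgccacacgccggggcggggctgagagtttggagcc
A window was matched for 32 of the 33 genes, and 12 of them (37.5%) held the motif on either strand, against 19.7% of the 27025 first windows of all genes. By step, it was present in 5 of 12 glycolytic windows, 5 of 10 of pyruvate and lactate handling and 2 of 10 of the TCA cycle. Ldha held 5 matches at 3 places, Gapdh and Ogdh 1 each and Tpi1 none. These are matches of letters in a window of 300 bases, listed with no test.

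A subset of the enzyme genes was lower in both twin groups than in intact controls, and no difference between the 2 media passed the test. Of the 29 genes tested, 9 were lower and 0 higher in GM501 twins than in KSOM controls, where 6.97% of all 18090 genes were called lower and 6.81% higher (limma, two-sided, Benjamini-Hochberg adjusted p under 0.05). In SAGE twins 10 were lower and 1 higher than in the same KSOM controls, where 8.63% of all genes were called lower and 7.5% higher. The median difference of the 29 genes was -0.42 in GM501 twins and -0.51 in SAGE twins, beside 0.11 for all genes tested in each comparison. Both comparisons rest on the same 10 controls. Most calls lay close to the threshold: with each of the 20 arrays of a comparison left out in turn, between 2 genes (without the GM501 twin of pair 2 or 3) and 16 (without that of pair 10) were lower in GM501 twins, and between 3 (without the SAGE twin of pair 1 or 4) and 18 (without that of pair 9) in SAGE twins. The differences of the called genes kept their direction in all 20 fits. Ogdh and Dlst were called in all 20 fits in both twin groups and Pfkp and Aldoc in all 20 in SAGE twins, whereas each of the other calls was lost in at least 1 fit. The all-gene calls, 1232 higher and 1261 lower in GM501 twins and 1356 higher and 1562 lower in SAGE twins, depended on scaling. Each array was next centred on its median over the 30142 named genes, tested or not. The calls were then 366 higher and 1807 lower in GM501 twins and 389 higher and 2393 lower in SAGE twins. The median of all genes then moved to -0.07 in GM501 twins and -0.08 in SAGE twins, that of the 29 genes to -0.61 and -0.70, and 12 and 13 of the 29 were lower with 0 higher. Between GM501 twins and their SAGE co-twins no gene of the 29 was called, and 0% of all genes were.

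Averaged over the genes of a step, each embryo can be set against the mean of the controls. For the 10 glycolytic genes the step mean ran from -1.03 to 0.46 with a median of -0.72 in GM501 twins, from -1.2 to 0.16 with a median of -0.5 in SAGE twins, and from -0.29 to 0.14 with a median of 0.03 in KSOM controls. For the 11 TCA cycle genes it ran from -1.07 to 0.05 with a median of -0.6 in GM501 twins, from -1.22 to -0.04 with a median of -0.46 in SAGE twins, and from -0.13 to 0.16 with a median of 0 in KSOM controls. For the 8 genes of pyruvate and lactate handling it ran from -0.82 to 0.13 with a median of -0.3 in GM501 twins, from -0.85 to -0.03 with a median of -0.2 in SAGE twins, and from -0.17 to 0.12 with a median of 0.03 in KSOM controls. In all 3 steps both twin groups reached below the lowest control and overlapped the controls at their upper end. In glycolysis all 12 twins of pairs 1 to 6 lay below every control, from -1.2 to -0.41, whereas the twins of pairs 7 to 10 averaged 0.04 ± 0.3 in GM501 and -0.11 ± 0.33 in SAGE (SD, n = 4 each).

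**Figure D1:**
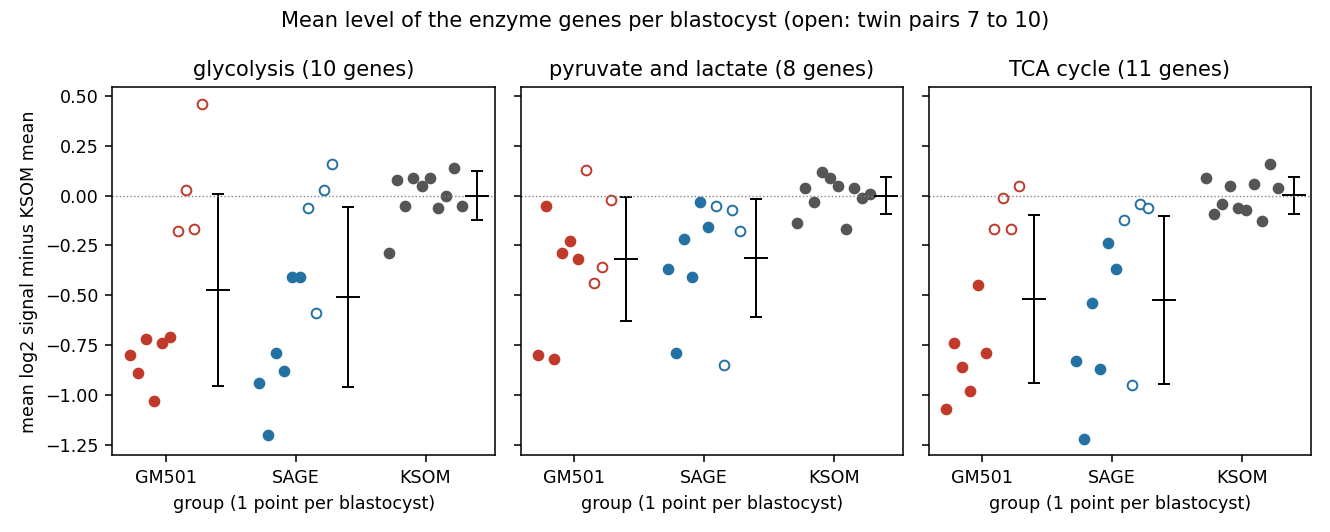
Mean log2 signal of the tested genes of each step in each blastocyst, minus the mean of the KSOM controls (vertical axis, log2), for GM501 twins, SAGE twins and KSOM controls (10 points each; open points are twins of pairs 7 to 10; black bars are mean ± SD). In glycolysis and the TCA cycle the filled twin points lie below the controls, while most open points reach the range of the controls.

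The comparison of co-twins asks whether the 2 clinical media gave different enzyme transcript levels on the same genetic background. None of the 29 genes differed by the adjusted p, and 1 of them, Pgk1, had an unadjusted p under 0.05, as did 695 of all 18090 genes. Differences ran from -0.33 in Pdhb, the beta subunit of the E1 component of pyruvate dehydrogenase, to 0.41 in Slc16a1, the monocarboxylate transporter MCT1, with a median of 0.02, beside 0.01 over all genes. The 95% interval of the difference lay within 1 log2 unit of 0 for 27 of the 29 genes and within 0.5 for 19. The exceptions to the wider limit were Slc16a1, with an interval from -0.37 to 1.18, and Pdha1, the alpha subunit of the same E1 component, with -0.69 to 1.01. Across the 29 genes the GM501 twin was the higher one in between 2 and 7 of the 10 pairs. The median difference was 0.17 within pairs 7 to 10 and -0.09 within pairs 1 to 6, with 0 genes called in either set (limma; 0 of the 29 at an unadjusted p under 0.05 in each). Without pair 8 it was -0.04.

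In glycolysis, 4 of the 10 genes tested were lower in GM501 twins and 6 lower and 1 higher in SAGE twins, each against KSOM controls. Tpi1, the triose phosphate isomerase that interconverts the 2 products of aldolase, ran from 11.28 to 14.08 with a median of 12.44 in GM501 twins, from 10.21 to 13.93 with a median of 12.43 in SAGE twins, and from 13.34 to 13.98 with a median of 13.68 in KSOM controls. All 12 twins of pairs 1 to 6 were below the lowest control, and twins of pairs 7 to 10 lay on both sides of it, so the groups overlapped. Tpi1 fell by 1.06 ± 0.31 (SE) in GM501 twins against KSOM controls (limma adjusted p = 0.0331) and by 1.29 ± 0.37 in SAGE twins (adjusted p = 0.0299).

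Gapdh, glyceraldehyde-3-phosphate dehydrogenase, ran from 14.25 to 15.64 with a median of 14.68 in GM501 twins, from 13.55 to 15.69 with a median of 14.87 in SAGE twins, and from 15.22 to 15.81 with a median of 15.48 in KSOM controls. Again all 12 twins of pairs 1 to 6 were below the lowest control, together with 1 SAGE twin of the other pairs. It fell by 0.56 ± 0.18 in GM501 twins (adjusted p = 0.0419) and fell by 0.62 ± 0.21 in SAGE twins (adjusted p = 0.0453), each against KSOM. Gapdh is often used as a constant control transcript, and its cluster carries 2 gene IDs, so copies that share its sequence could contribute. Aldoa, aldolase A, fell by 0.52 ± 0.16 in GM501 twins (adjusted p = 0.0361) and fell by 0.53 ± 0.17 in SAGE twins (adjusted p = 0.0363), each against KSOM controls.

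Pfkp, the platelet isoform of phosphofructokinase, which commits sugar to glycolysis, ran from 5.27 to 7.2 with a median of 5.94 in GM501 twins, from 5.62 to 6.2 with a median of 6 in SAGE twins, and from 5.82 to 7.76 with a median of 6.86 in KSOM controls. Only 2 GM501 twins and 3 SAGE twins lay below the lowest control, but 1 GM501 twin and 0 SAGE twins exceeded the median of the controls. Pfkp fell by 0.80 ± 0.24 in GM501 twins (adjusted p = 0.0355) and fell by 0.86 ± 0.20 in SAGE twins (adjusted p = 0.0142). Within pairs 7 to 10 the differences from KSOM were -0.57 ± 0.35 in GM501 twins and -0.95 ± 0.31 in SAGE twins, not called (adjusted p = 0.492 and 0.133), and within pairs 1 to 6 they came to -0.96 ± 0.27 and -0.80 ± 0.25 (adjusted p = 0.00543 and 0.0126). The other isoforms were not called: Pfkl, the liver form, differed by -0.30 and -0.29 and Pfkm, the muscle form, by -0.18 and -0.10 in GM501 and SAGE twins against KSOM.

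At the lower end of glycolysis, Pgam1 (phosphoglycerate mutase) and Pkm (pyruvate kinase of most non-liver tissues) passed the threshold in SAGE twins alone. Pkm ran from 6.12 to 9.71 with a median of 7.07 in GM501 twins, from 6.47 to 9.1 with a median of 7.2 in SAGE twins, and from 7.53 to 8.75 with a median of 8.45 in KSOM controls. All 12 twins of pairs 1 to 6 were below the lowest control, and 2 GM501 twins and 1 SAGE twin of pairs 7 to 10 exceeded the highest. Pkm differed by -0.79 ± 0.36 in GM501 twins (adjusted p = 0.112) and fell by 0.92 ± 0.27 in SAGE twins (adjusted p = 0.03). Pgam1 differed by -0.89 ± 0.33 in GM501 twins (adjusted p = 0.0679) and fell by 1.02 ± 0.30 in SAGE twins (adjusted p = 0.0314). The direct difference between the media was 0.13 for Pkm and 0.12 for Pgam1, neither called. Without pair 8 Pgam1 was called in GM501 twins too (-1.0, adjusted p = 0.0368).

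Aldoc, the brain-type aldolase C, was the 1 gene of the 29 that was called higher. It ran from 4.48 to 5.82 with a median of 5.1 in GM501 twins, from 4.86 to 5.36 with a median of 5.01 in SAGE twins, and from 4.47 to 5.02 with a median of 4.65 in KSOM controls. All 10 SAGE twins and 9 GM501 twins exceeded the median of the controls, at signals close to the level set for testing. The difference from KSOM was 0.43 ± 0.14 in GM501 twins (adjusted p = 0.0507) and 0.36 ± 0.09 in SAGE twins (adjusted p = 0.0161). With each array centred on its median the SAGE difference was 0.17 and no longer called (adjusted p = 0.166). Pgk1, phosphoglycerate kinase, differed by -0.08 in GM501 twins and 0.20 in SAGE twins, neither called. Its chosen cluster is numbered on chromosome 12, while the gene lies on the X chromosome. The identifiers of 99% of all single-gene clusters matched the chromosome in RefSeq, so this cluster may read a near-identical copy. The cluster of Pgk1 on the X chromosome differed by -0.01 and 0.13, again not called.

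**Figure D2:**
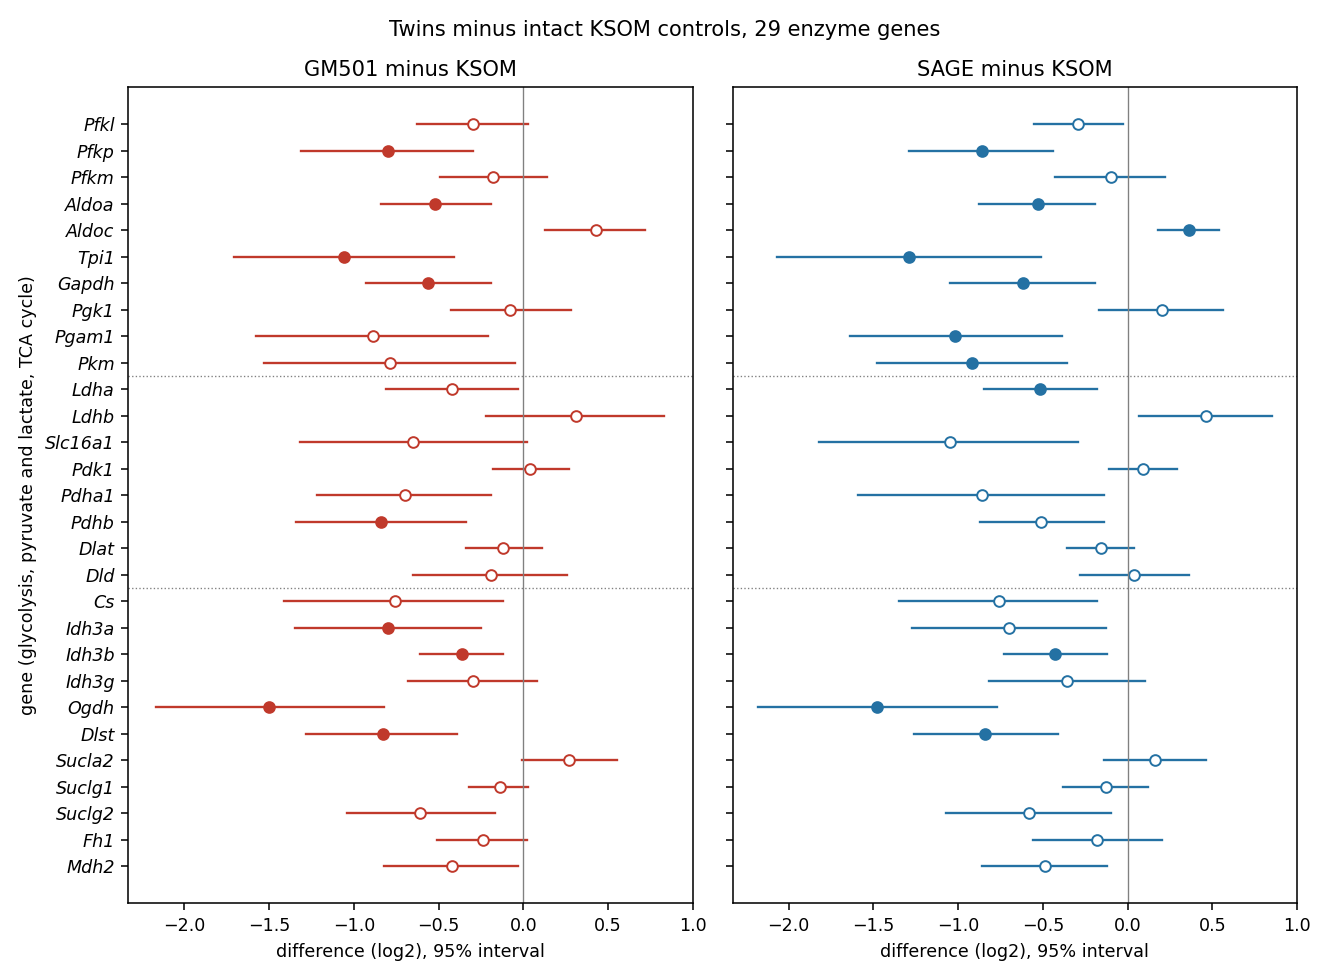
Difference of each of the 29 tested genes between GM501 twins and KSOM controls (left) and between SAGE twins and KSOM controls (right), in log2 units with 95% intervals (n = 10 per group). Filled points have an adjusted p under 0.05, dotted lines divide the 3 steps, and in both panels Ogdh lies farthest to the left.

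Pyruvate and lactate handling held the fewest calls, 1 lower of 8 genes in each twin group. In GM501 twins the gene was Pdhb. It ran from 12.1 to 14.62 with a median of 14.35 in GM501 twins, from 13.1 to 15.11 with a median of 14.44 in SAGE twins, and from 14.5 to 15.02 with a median of 14.8 in KSOM controls. Of the GM501 twins, 9 lay below the lowest control, the most of any gene in the list, and 3 of these were from pairs 7 to 10. In SAGE twins 6 did, and 1 exceeded the highest control. Pdhb differed from KSOM by -0.84 ± 0.24 in GM501 twins (adjusted p = 0.0298) and by -0.51 ± 0.18 in SAGE twins (adjusted p = 0.0516). Within pairs 7 to 10 it was the gene of the 29 with the smallest adjusted p in GM501 twins, at -0.42 ± 0.11 (adjusted p = 0.0729, not called).

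In SAGE twins the gene was Ldha, the lactate dehydrogenase subunit that predominates in tissues producing lactate. It ran from 6.09 to 7.34 with a median of 6.71 in GM501 twins, from 6.08 to 7.1 with a median of 6.68 in SAGE twins, and from 6.7 to 8.09 with a median of 7.1 in KSOM controls. No SAGE twin exceeded the median of the controls, and 5 twins of each medium lay below the lowest control. Ldha differed by -0.42 ± 0.19 in GM501 twins (adjusted p = 0.108) and fell by 0.52 ± 0.16 in SAGE twins (adjusted p = 0.0367).

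Ldhb, the subunit that predominates in heart, had higher medians in both twin groups than in the controls, with twins on both sides of the controls. It ran from 5.05 to 8.02 with a median of 5.81 in GM501 twins, from 5.12 to 7.04 with a median of 6.08 in SAGE twins, and from 5.43 to 5.81 with a median of 5.65 in KSOM controls. Of the SAGE twins 8 exceeded the highest control, and of the GM501 twins 5 did, all 5 from pairs 1 to 6. Below the lowest control lay 3 GM501 and 2 SAGE twins, all of pairs 7 to 10. The differences from KSOM, 0.31 ± 0.25 in GM501 twins and 0.46 ± 0.19 in SAGE twins, were not called (adjusted p = 0.365 and 0.0835). Within pairs 1 to 6 the difference was 0.70 ± 0.25 in GM501 twins (adjusted p = 0.0241) and 0.63 ± 0.11 in SAGE twins (adjusted p = 0.00015). The GM501 twin of pair 2 had 8.02 and the next 6.2; without it the GM501 difference was 0.36 ± 0.10 within pairs 1 to 6 (adjusted p = 0.00606) and 0.07 ± 0.13 over all pairs (adjusted p = 0.712). Within pairs 7 to 10 it was -0.29 ± 0.10 in GM501 twins and 0.20 ± 0.25 in SAGE twins, not called.

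The other genes of this stretch were not called against KSOM in either group. Slc16a1, which carries lactate and pyruvate across the plasma membrane, differed by -0.65 in GM501 twins and -1.05 in SAGE twins (adjusted p = 0.144 and 0.0531). Pdha1 differed by -0.70 and -0.86 (adjusted p = 0.0593 and 0.0807), and 1 SAGE twin, that of pair 8, had 7.75 where the 9 others had 9.46 or more. Without pair 8 Pdha1 was called lower in GM501 twins (-0.73, adjusted p = 0.0446) and not in SAGE twins (-0.55, adjusted p = 0.0678). Dlat and Dld, the E2 and E3 components of pyruvate dehydrogenase, differed by -0.12 and -0.19 in GM501 twins and by -0.16 and 0.04 in SAGE twins. Pdk1, a kinase that inhibits the complex, differed by 0.04 and 0.09. Slc16a3, the lactate exporter MCT4, had medians of 4.88 in GM501 twins, 4.8 in SAGE twins, against 4.64 in KSOM controls, with 6 GM501 and 5 SAGE twins above the highest control. All 6 of these GM501 twins and 4 of these SAGE twins were of pairs 1 to 6, and the other was the SAGE twin of pair 8. Below the lowest control lay 1 GM501 and 2 SAGE twins, all of pairs 7 to 10. Pcx, pyruvate carboxylase, had medians of 4.66 in GM501 twins, 4.68 in SAGE twins, against 4.69 in KSOM controls.

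**Figure D3:**
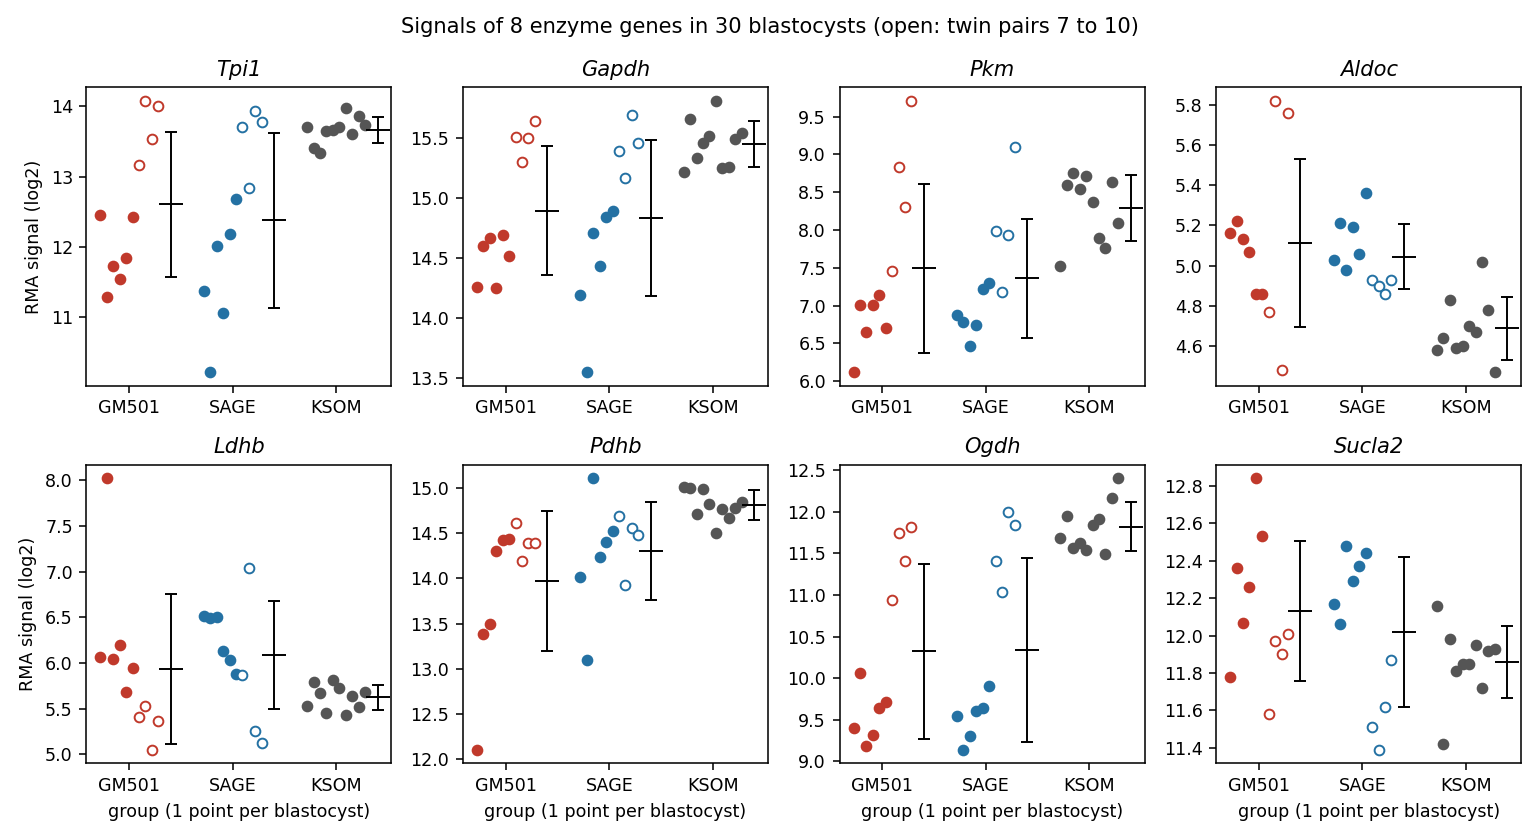
Log2 signals (vertical axes) of 8 genes in every GM501 twin, SAGE twin and KSOM control (1 point per blastocyst, 10 per group; open points are twins of pairs 7 to 10; black bars are mean ± SD). In Tpi1, Gapdh, Pkm and Ogdh all filled points lie below all controls, whereas Aldoc, Ldhb and Sucla2 have most filled points above the median of the controls.

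In the TCA cycle 4 of 11 genes were lower in GM501 twins and 3 of 11 in SAGE twins than in KSOM controls. The largest difference of the whole list was in Ogdh, the E1 subunit of the 2-oxoglutarate dehydrogenase complex. Ogdh ran from 9.18 to 11.82 with a median of 9.89 in GM501 twins, from 9.14 to 12 with a median of 9.77 in SAGE twins, and from 11.49 to 12.4 with a median of 11.77 in KSOM controls. In each medium 8 of 10 twins lay below the lowest control. The 12 twins of pairs 1 to 6 had at most 10.06 and the 8 of pairs 7 to 10 at least 10.94, with no value between. Ogdh fell by 1.5 ± 0.32 in GM501 twins (adjusted p = 0.0106) and by 1.48 ± 0.34 in SAGE twins (adjusted p = 0.0128), each against KSOM.

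Dlst, the E2 subunit of the same complex, ran from 8.23 to 9.99 with a median of 8.65 in GM501 twins, from 8.09 to 9.93 with a median of 9.08 in SAGE twins, and from 9.44 to 10.21 with a median of 9.79 in KSOM controls. All 12 twins of pairs 1 to 6 and 2 further SAGE twins were below the lowest control. Dlst fell by 0.83 ± 0.21 in GM501 twins (adjusted p = 0.0203) and by 0.84 ± 0.20 in SAGE twins (adjusted p = 0.0157).

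Isocitrate dehydrogenase 3, the NAD-dependent enzyme of the cycle, is built from 3 kinds of subunit. The catalytic subunit Idh3a fell by 0.80 ± 0.26 in GM501 twins (adjusted p = 0.0474) and differed by -0.70 ± 0.27 in SAGE twins (adjusted p = 0.0752). Idh3b fell by 0.36 ± 0.12 in GM501 twins (adjusted p = 0.0467) and fell by 0.43 ± 0.15 in SAGE twins (adjusted p = 0.0498). Idh3g, an X-linked gene, differed by -0.30 and -0.36 and was called in neither. The calls of Idh3a and Idh3b lie close to the threshold: without pair 8 Idh3b was not called in SAGE twins (-0.39, adjusted p = 0.0705), and with limma's trend and robust options it was called in neither medium (adjusted p = 0.0519 and 0.056). Differences between subunits were not tested.

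Succinyl-CoA synthetase pairs a shared subunit, Suclg1, with a nucleotide-specific one, Sucla2 for ADP or Suclg2 for GDP. Sucla2 ran from 11.58 to 12.84 with a median of 12.04 in GM501 twins, from 11.39 to 12.48 with a median of 12.12 in SAGE twins, and from 11.42 to 12.16 with a median of 11.88 in KSOM controls. The groups overlapped, with 4 GM501 and 5 SAGE twins, all of pairs 1 to 6, above the highest control. Suclg2 ran from 10.11 to 11.79 with a median of 10.51 in GM501 twins, from 9.85 to 11.95 with a median of 10.71 in SAGE twins, and from 10.98 to 11.89 with a median of 11.46 in KSOM controls. Here all 12 twins of pairs 1 to 6 were below the lowest control. None of the 3 genes was called against KSOM: Sucla2 differed by 0.27 and 0.16, Suclg2 by -0.61 and -0.58, and Suclg1 by -0.14 and -0.13 in GM501 and SAGE twins. Without pair 8 Suclg2 was called lower in GM501 twins (-0.65, adjusted p = 0.0356). After centring of each array Sucla2 differed by 0.09 and -0.03, so its direction in SAGE twins depended on the scaling.

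Citrate synthase, encoded by Cs at the entry of the cycle, differed by -0.76 in GM501 twins and -0.76 in SAGE twins (adjusted p = 0.0878 and 0.0633). Without pair 8 it was called in GM501 twins (-0.87, adjusted p = 0.0466). Fh1, fumarase, differed by -0.24 and -0.18, and Mdh2, mitochondrial malate dehydrogenase, by -0.42 and -0.49 (adjusted p = 0.111 and 0.0604). Cs was below the lowest control in 6 GM501 and 5 SAGE twins and Mdh2 in 5 and 6. Within pairs 1 to 6 both were called lower in GM501 twins (-1.40 and -0.78) and in SAGE twins (-1.23 and -0.66).

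The comparisons with KSOM controls were also made within each pair set. Within pairs 1 to 6, 17 of the 29 genes were called lower and 3 higher in GM501 twins, where 21.1% of all genes were called lower and 38.3% higher, and 18 lower and 3 higher in SAGE twins, where 19.9% and 38.9% were. The 3 higher genes were Aldoc, Ldhb and Sucla2 in each medium. The median difference of the 29 genes there was -0.78 in GM501 twins and -0.64 in SAGE twins, beside 0.19 and 0.20 for all genes. Ogdh differed by -2.27 ± 0.15 and -2.29 ± 0.15, Tpi1 by -1.79 ± 0.16 and -2.08 ± 0.27, and Pkm by -1.51 ± 0.20 and -1.38 ± 0.19. Called genes of all 3 steps were among those that were lower: 7 of 10 in glycolysis and 7 of 11 in the TCA cycle in each medium, and 3 of 8 (GM501) and 4 of 8 (SAGE) in pyruvate and lactate handling.

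Within pairs 7 to 10 none of the 29 genes was called against KSOM in GM501 twins, where 0.575% of all genes were called lower and 0.746% higher, or in SAGE twins, where 0.531% and 0.282% were (limma; 4 and 6 of the 29 had an unadjusted p under 0.05). The median difference was -0.06 in GM501 twins and -0.23 in SAGE twins. Compared with all pairs, the difference changed sign there in 13 of the 29 genes in GM501 twins and in 3 in SAGE twins. Ogdh differed by -0.34 ± 0.18 and -0.25 ± 0.19, Tpi1 by 0.03 ± 0.16 and -0.10 ± 0.17, Gapdh by 0.03 ± 0.11 and -0.03 ± 0.13, and Pkm by 0.29 ± 0.33 and -0.23 ± 0.30. With 4 twins per medium these intervals are wide for some genes, as for Pdha1 in SAGE twins (-2.04 to 0.06), while for Gapdh they exclude the differences seen within pairs 1 to 6 (-0.21 to 0.28 in GM501 twins and -0.30 to 0.25 in SAGE twins). Leaving out pair 8, whose SAGE twin had the outlying array median, 0 of the 29 genes were called in pairs 7, 9 and 10, and the medians were -0.03 in GM501 twins and 0.01 in SAGE twins.

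Co-twins share a genotype and also a pair set (1 to 6 or 7 to 10), which cannot be told apart in a test over all 10 pairs. The embryo of origin was tested over the 10 pairs in a model that also held the medium. It passed in 12 of the 29 genes, where 26.4% of all genes passed (limma F test, adjusted p under 0.05): 7 of 10 in glycolysis (Pfkl, Aldoa, Tpi1, Gapdh, Pgk1, Pgam1 and Pkm), 0 of 8 in pyruvate and lactate handling and 5 of 11 in the TCA cycle (Cs, Ogdh, Dlst, Suclg2 and Mdh2). F was largest for Ogdh at 20.1 (adjusted p = 0.000689) and Tpi1 at 11.8 (adjusted p = 0.00291). With the fewer embryos of pairs 1 to 6 alone, F was 0.788 for Ogdh and 4.48 for Tpi1. Within pairs 7 to 10 alone it was 1.32 and 0.471. In pyruvate and lactate handling the largest F was 3.03, for Ldhb (adjusted p = 0.0983). The Pgk1 cluster on chromosome 12 passed (adjusted p = 0.0356) and that on the X chromosome did not (adjusted p = 0.0504). Without pair 8, 17 of the 29 genes passed, with Ldhb, Idh3a, Idh3b, Sucla2 and Fh1 added. The share of all genes in that fit is not given here, so the rise cannot be set against it. No gene of the 29 passed within pairs 1 to 6, where 0.243% of all genes did, or within pairs 7 to 10, where 0.0663% did, and 5 and 4 of the 29 had an unadjusted p under 0.05.

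**Figure D4:**
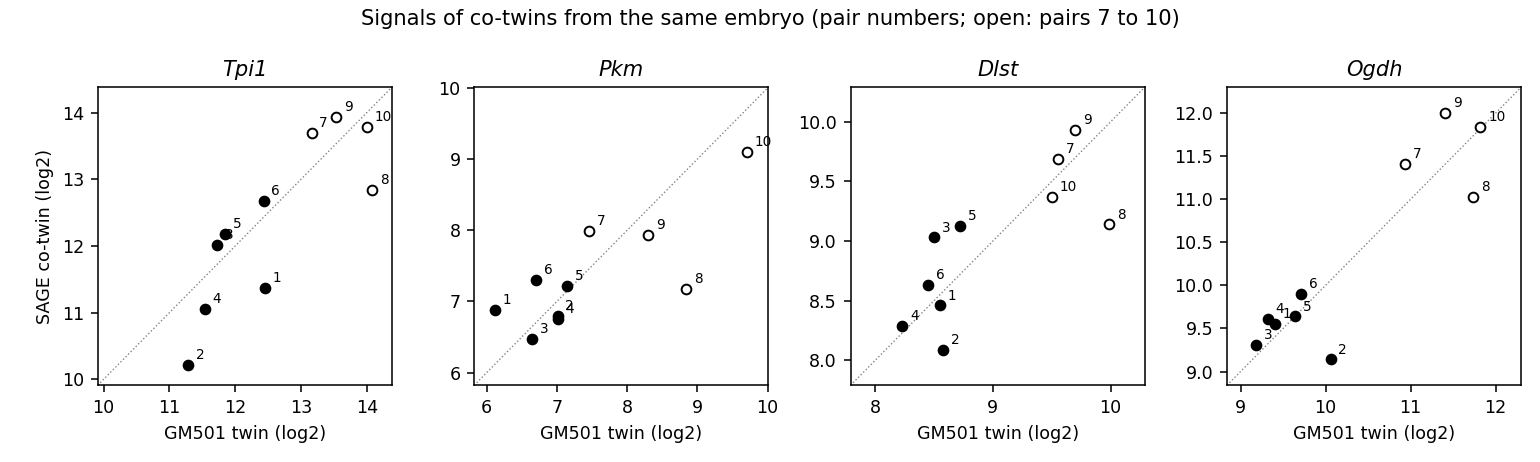
Log2 signal of the SAGE co-twin (vertical axis) against the GM501 twin (horizontal axis) for Tpi1, Pkm, Dlst and Ogdh (1 point per pair, numbered; open points are pairs 7 to 10; the dotted line marks equal signals). Filled and open points form separate clouds in the plot of Ogdh, with filled points at 10.06 or less on both axes and open points at 10.94 or more.

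The signals of these genes also varied more among twins than among controls. The median SD over embryos of the 29 genes was 0.54 in GM501 twins and 0.56 in SAGE twins, against 0.28 in KSOM controls. The SD exceeded that of KSOM in 27 of the 29 genes (93.1%) in GM501 twins and in 26 (89.7%) in SAGE twins, near the 87.1% and 87.6% of all 18090 genes. Over all genes the median SDs were 0.46 in GM501 twins, 0.48 in SAGE twins, against 0.25 in KSOM controls. Among the exceptions were Pfkp and Pdk1 in SAGE twins, with SDs of 0.19 and 0.13 against 0.64 and 0.23 in KSOM controls. Within the pair sets the genes behaved unlike each other. In GM501 twins the SD of Dlst was 0.63 over all pairs, 0.16 within pairs 1 to 6 and 0.22 within pairs 7 to 10, against 0.29 in KSOM controls. That of Dld was 0.66, 0.82 and 0.42, against 0.28. The part of the pair sets in the spread was not tested.

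Beside the list stand 67 other genes of the same pathways, of which 47 were tested. In GM501 twins 5 of the 47 were lower and 0 higher than in KSOM controls, beside 6.97% and 6.81% of all 18090 genes. In SAGE twins 7 were lower and 1 higher, beside 8.63% and 7.5% of all genes. The medians of the 47 were -0.07 and -0.18. Within pairs 1 to 6, 17 were lower and 8 higher in GM501 twins, beside 21.1% and 38.3% of all genes. In SAGE twins of these pairs 16 were lower and 9 higher, beside 19.9% and 38.9%. Lower in both media were G6pc3, a glucose-6-phosphatase (-1.26 and -1.38), Bsg, the chaperone of MCT1 (-0.37 and -0.37), Sdha, the flavoprotein of succinate dehydrogenase (-0.90 and -0.79), Slc25a10, the mitochondrial dicarboxylate carrier (-1.09 and -1.30), and Taldo1, transaldolase of the pentose phosphate route (-1.10 and -1.13). In SAGE twins Got1, cytosolic aspartate aminotransferase (-1.18), and Pgd, 6-phosphogluconate dehydrogenase (-1.60), were lower too, and Mpc1, a subunit of the mitochondrial pyruvate carrier, was higher (0.53). G6pc3 was also lower in GM501 twins within pairs 7 to 10 (-0.97, adjusted p = 0.0202). In that set Aco1, cytosolic aconitase (1.14), and Acly, ATP citrate lyase (1.22), were higher in GM501 twins than in KSOM controls, whereas Acly was lower in GM501 twins within pairs 1 to 6 (-0.73, adjusted p = 0.00307). None of the 47 was called between co-twins.

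By tissue, the 6 trophectoderm markers, Cdx2 among them, were all measured and all lower in twins of both media than in KSOM controls, by a median of -0.71 in GM501 twins and -0.74 in SAGE twins. Of the 6 epiblast markers 1 was lower in GM501 twins and 5 in SAGE twins, and of 4 tested primitive endoderm markers 2 were lower in each. Of all 18090 genes 6.97% were called lower in GM501 twins and 8.63% in SAGE twins. The summed signal of the 6 trophectoderm markers, on the log2 scale, ran from 17.61 to 18.60 in GM501 twins, from 16.90 to 18.69 in SAGE twins and from 18.50 to 18.71 in KSOM controls. That of the epiblast markers ran from 11.04 to 14.96, from 11.73 to 13.69 and from 13.70 to 15.38 in GM501 twins, SAGE twins and KSOM controls, and that of the primitive endoderm markers from 10.73 to 13.09, from 10.90 to 13.04 and from 12.49 to 13.30. Signals were summed before the logarithm was taken, so the genes of highest signal weigh most in each sum. By mean over all arrays these were Krt18 (17.76) and Krt8 (16.11), Nanog (13.13) and Gata6 (11.77). Within pairs 1 to 6 all 6 trophectoderm markers were lower in each medium, with 5 of 6 epiblast markers in GM501 twins and 6 in SAGE twins and 3 of 4 primitive endoderm markers in each, among them Lama1 (-3.84 and -3.53), a laminin chain of basement membranes. Of all genes 21.1% were called lower in GM501 twins and 19.9% in SAGE twins of these pairs. Within pairs 7 to 10, 1 of the 6 trophectoderm markers was called lower in GM501 twins and 0 in SAGE twins, and no epiblast or primitive endoderm marker in either (limma; 2 and 1 trophectoderm, 0 and 4 epiblast and 0 and 0 primitive endoderm markers at an unadjusted p under 0.05). Of all genes 0.575% and 0.531% were called lower in that set. Of 10 markers of other cells, such as blood and oviduct cells, 3 were tested and none was called against KSOM over all pairs, while within pairs 1 to 6 Col1a1, a collagen chain of fibroblasts, was higher in GM501 twins (0.43, adjusted p = 0.000134) and in SAGE twins (0.41, adjusted p = 0.000336). Of all genes 38.3% and 38.9% were called higher within pairs 1 to 6. The part of lineage markers in the differences of the enzymes was not tested.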

How the data were processed

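Single mouse blastocysts were profiled on Affymetrix arrays, with RNA amplified by a WT Pico kit, per the labels. The deposited values were log2 signals, summarised by the authors with RMA in Affymetrix Expression Console on mm10, per the submitters' processing notes. The log base was read from the values (2.2 to 19.3). The array number, 10 per group, limits precision.

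Of 65956 clusters, 30604 carried 1 gene symbol, giving 30142 genes. The upper 60% by mean over all 30 arrays (18090 genes, mean at least 4.8) entered two-sided tests fitted by lmFit and eBayes (limma 3.58.1, R 4.3.3), with Benjamini-Hochberg adjustment over all of them; the code was checked on simulated data. Co-twins were compared with the pair as a block, because the labels tie both twins of a number to 1 embryo. With genes centred within medium, partners correlated at r = 0.163 to 0.696 across genes, and for 7 of 10 GM501 twins the best correlation was with the partner. Twins were compared with controls on 20 arrays each. No 2 arrays were identical. Alternatives covered scaling, filtering, fitting and left-out pairs.

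All members were named whatever their p. Of the other pathway genes, up to 3 called genes per list and comparison were named. The members and lists were chosen with earlier results of these data known.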

Additional observations from a re-analysis of the deposited data

Results flagged for a closer look

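In 87 groups of 10 embryos (29 genes in 3 groups), 7 held an embryo whose gap to its neighbour was large for the range of its group (Dixon's test at the 95% limit). Chance marks about 1 in 20 groups. The GM501 twin of pair 10 was the highest of its group in Pfkl, with 7.44 against 6.6 for the next twin, and in Pfkp, with 7.2 against 6.19. In Pfkm, the remaining phosphofructokinase gene, it had 6.1, and the highest GM501 twin, that of pair 8, had 6.66. The GM501 twin of pair 2 had 8.02 for Ldhb, and the next had 6.2. The GM501 twin of pair 1 had the lowest Pdhb, 12.1, with the next at 13.38. The SAGE twin of pair 2 had the lowest Mdh2, 11.65, with the next at 12.77. The SAGE twin of pair 9 had the lowest Pdk1, 4.72, with the next at 4.94. Among KSOM controls, replicate 4 had the highest Pdha1, 12.08, with the next at 11.46.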

How the results depend on the processing

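In GM501 twins against KSOM, 9 lower calls became 17 with array weights, 17 in pairs 1 to 6 alone, and 0 among the twins of pairs 7 to 10 alone or of pairs 7, 9 and 10. The 0 higher calls became 1 without the filter, 2 with array weights, 3 in pairs 1 to 6, and 1 under limma's trend and robust options. In SAGE twins against KSOM, 10 lower calls became 18 with array weights, 18 in pairs 1 to 6, and 0 among the twins of pairs 7 to 10 or of pairs 7, 9 and 10. The 1 higher call became 3 with array weights, 3 in pairs 1 to 6, and 0 with centred arrays, without pairs 1 to 6, and without these and pair 8. The 12 embryo calls became 0 in each set and in pairs 7, 9 and 10, sets with fewer samples; for the rest the cause was not tested. With 1 array left out at a time, lower calls ran from 2 to 16 in GM501 twins and from 3 to 18 in SAGE twins, and higher calls from 0 to 1 and from 1 to 2; of the 9 and 11 called genes, 2 and 4 were called in all 20 fits. Of the genes called over all pairs, in GM501 twins against KSOM, Tpi1 (0.03), Gapdh (0.03) and Idh3a (0.11) reversed in pairs 7 to 10, and Aldoa (0.01) and Gapdh (0.10) in pairs 7, 9 and 10. In SAGE twins against KSOM, Aldoa (0.03), Tpi1 (0.14), Gapdh (0.06), Pgam1 (0.08) and Pkm (0.06) reversed in pairs 7, 9 and 10. A further 10 genes in GM501 twins and 3 in SAGE twins, not called over all pairs, changed sign in pairs 7 to 10, at most to 0.29 (Pkm) and -0.29 (Ldhb), both in GM501 twins. No paired alternative changed a co-twin call: without the replicate block 0 members were called, and 225 genes against 695 had an unadjusted p under 0.05. Without pair 8, lower calls in GM501 twins were 13 (adding Pgam1, Pdha1, Cs and Suclg2) and in SAGE twins 9 (Idh3b lost, adjusted p = 0.0705), and 17 genes passed for embryo of origin. Centring arrays gave 12 lower calls in GM501 twins and 13 in SAGE twins. Over all genes, array weights gave 5076 higher and 2835 lower calls in GM501 twins and 5758 and 3118 in SAGE twins, and no filter gave 4244 and 1513, and 5969 and 1942. Without pair 8 there were 2683 and 1841 in GM501 twins. Pairs 7, 9 and 10, the arrays left out singly and the X chromosome cluster of Pgk1, as well as the pair sets for embryo of origin, were chosen after seeing the data. Averaging all clusters of a gene changed no call of the 29, but of these only Pgk1 had 2 clusters. For the other members the averaged signal was the same signal, so this setting could show little.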
